A study of Mus musculus with 20 samples.

Results

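The effect of losing Pck1 in the liver was measured in mice that stayed on a chow diet. The comparison takes 10 of the 20 liver RNA-seq libraries of the series, 5 from Pck1-knockout (KO) mice and 5 from wild-type (WT) mice, chosen by the genotype and the diet in their labels. All 14440 genes that passed a filter on low counts were compared, out of 26350 genes with at least 1 count. The KO chow mice carried the genotype named Pck1-cKO, in which Pck1 is removed in the liver, and had eaten chow for 24 weeks. The WT chow mice had eaten the same diet for the same time, and mice of both groups were 31 to 33 weeks old. Each library is labelled as a separate mouse, 1 to 5 within its group, and is named below by genotype and number, as in KO 1 or WT 3. The remaining 10 libraries, 5 KO and 5 WT, came from mice fed the NASH diet, made to bring on non-alcoholic steatohepatitis. They enter the estimate of the spread and the test of whether the genotype effect differs between diets. Not given in the sources used here are the promoter that drives the recombinase, the exons that are removed, the sex and the litters of the mice.

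Pck1 encodes the cytosolic phosphoenolpyruvate carboxykinase, which turns oxaloacetate into phosphoenolpyruvate. In the liver this step feeds gluconeogenesis from lactate and amino acids, and it also draws carbon out of the tricarboxylic acid (TCA) cycle. The liver handles the fatty acids that reach it by oxidising them in mitochondria and peroxisomes, by storing them as triglyceride in lipid droplets, or by exporting them in lipoproteins. Many liver genes of steroid, bile acid and drug metabolism differ between male and female mice under the control of growth hormone pulses.

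The WT libraries held 13369736 to 19226435 counts and the KO libraries 16688365 to 20601955. Levels are given as CPM, counts relative to a library total that was adjusted by edgeR's TMM scaling factor. That factor ran from 0.74 in WT 4 to 1.21 in KO 2, so the CPM of different libraries do not add up to the same total. Log2 fold changes are KO against WT. A gene is called when its adjusted p in edgeR's quasi-likelihood test is under 0.05. In counts of genes, rose and fell mean called higher and called lower. Of 544 distinct genes in 32 lists of pathways and gene families, 527 passed the low-count filter, are counted as measured below, and 76 were called. Sex was read from the counts: all 5 WT mice and KO 1, 2 and 4 had 3256 to 5230 counts over Y-linked genes, and KO 3 and KO 5 had 2 to 12. Because both female libraries are KO, sex is partly confounded with genotype, and values in the male libraries alone are given where they matter. The libraries also differed in how their counts varied with gene length. The slope of log2 CPM on log2 gene length lay at −0.34 to −0.25 in WT 3, WT 4, WT 5, KO 4 and KO 5, and at 0.09 to 0.19 in the other 5. As a check of the labelled tissue, 7 hepatocyte marker genes summed to 94703.9 to 161715.9 CPM in WT and to 52980.6 to 137196.7 CPM in KO. No marker of Kupffer cells, stellate cells, endothelial cells, cholangiocytes, blood cells or fat tissue was called. Kupffer markers summed to 265.2 to 1181.6 CPM in WT and to 415.0 to 1320.6 CPM in KO, and stellate markers to 174.6 to 796.6 CPM and 263.3 to 1130.4 CPM. In whole tissue, fewer cells of a type and less RNA per cell cannot be told apart.

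Pck1 (chr2:173153048-173159273, GRCm38, plus strand) was present at 4242, 4641, 3406, 1707 and 3871 CPM in WT 1 to WT 5 and at 523, 458, 861, 762 and 528 CPM in KO 1 to KO 5. The groups did not overlap, and WT 4, the lowest WT library, was well above KO 3, the highest KO library. The mean fell from 3573 ± 1139 CPM (SD, n = 5) to 626 ± 175 CPM (n = 5), or by 2.51 on the log2 scale (SE 0.291, adjusted p = 0.00011). Whether the reads that remained in KO come from the removed exons, from other liver cells or from hepatocytes that kept the gene cannot be seen in gene counts. Pck2, which encodes the mitochondrial form of the enzyme, had 2.99 ± 1.21 CPM in WT, against 2.95 ± 1.09 CPM in KO (log2 fold change −0.02, SE 0.332, adjusted p = 0.984).

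Beside Pck1, which the list leaves out, none of the 12 gluconeogenesis genes measured was called, where edgeR called 5.53% of all genes. The only member under an unadjusted p of 0.05 was Got1, DESeq2 called 1 member, where it called 9.63% of all genes, and limma voom called 3 higher and 1 lower, where it called 40.4% of all genes. The median log2 fold change of the list was 0.15, against 0.00 over all genes. G6pc, which releases glucose from glucose 6-phosphate, had 416 ± 129 CPM in WT, against 513 ± 292 CPM in KO. Fbp1, the fructose bisphosphatase, was at 1056 ± 330 CPM and 1091 ± 348 CPM. Pcx, the pyruvate carboxylase that makes oxaloacetate, was at 521 ± 113 CPM and 685 ± 283 CPM. Got1, the cytosolic aspartate aminotransferase, had the largest difference of the list. Its level was 481, 737, 99.9, 147 and 216 CPM in WT and 1992, 1222, 888, 1206 and 208 CPM in KO. KO 1 to KO 4 lay above every WT library and KO 5 within their range, and the difference did not pass the test (1.71, SE 0.542, adjusted p = 0.0699).

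Across all genes, 438 rose in KO (3.03% of those tested) and 360 fell (2.49%). In 326 genes all 5 KO libraries lay above all 5 WT libraries (2.26%), and in 383 they lay below (2.65%). KO 1, KO 2, WT 1 and WT 2 are male and have a length slope above 0, and KO 1 and KO 2 held the highest KO values of many genes described below. Leaving out KO 1 gave 374 calls and leaving out KO 2 gave 348, while leaving out KO 5 gave 1220. Without WT 3 there were 422 calls and without WT 4 there were 480. The male libraries alone gave 984 calls, and the libraries with a negative length slope alone, where the chow groups keep 3 WT and 2 KO libraries, gave 51.

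**Figure D1:**
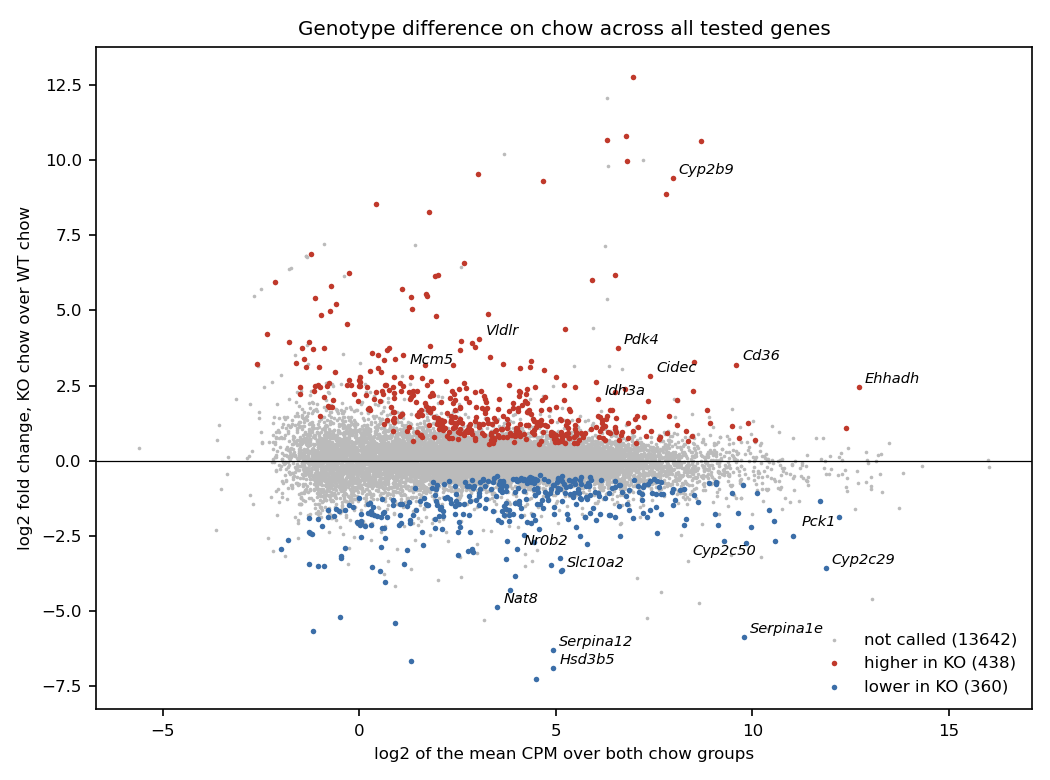
Log2 fold change of KO against WT on chow (vertical axis) against the mean level in log2 CPM (horizontal axis) for the 14440 genes tested, with called genes in colour (438 higher, 360 lower) and genes of the report named. Called genes lie on both sides of 0 over most of the range of levels, and Pck1 lies among the lowered genes of high level.

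The genes most raised in KO without overlap between the groups came from unrelated families. Gucy2c, the guanylate cyclase C receptor known from the intestine (chr6:136697284-136781765, minus strand), was at 0.948, 1.25, 0.597, 0.76 and 0.901 CPM in WT and at 21.3, 11.6, 17, 13.3 and 5.77 CPM in KO. Every KO library held several times the highest WT value, and Gucy2c rose by 3.92 on the log2 scale (SE 0.419, adjusted p = 4.17e-05). Aqp7, an aquaglyceroporin that passes glycerol through membranes (chr4:41033074-41048139, minus strand), had 1 count over the 5 WT libraries and 631 over the 5 KO libraries. In KO 1 to KO 5 that was 4.21, 9.17, 1.49, 12.4 and 6.75 CPM, and the gene was called (adjusted p = 3.67e-05). Myo15b, a myosin heavy chain gene, rose from 0.129 ± 0.118 CPM to 6.3 ± 6.69 CPM (5.54, SE 0.727, adjusted p = 0.000281), with KO 2 at 17.9 CPM. Glod5, a glyoxalase-domain gene on the X chromosome, rose from 0.092 ± 0.145 CPM to 7.46 ± 8.06 CPM (6.14, SE 0.989, adjusted p = 0.00151). Its highest value, 21.4 CPM, was in KO 5.

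Among the genes most lowered without overlap were transporters and serpins. Slc17a8, a vesicular glutamate transporter (chr10:89574020-89621253, minus strand), was at 30.1, 20.3, 30.1, 11.8 and 43.6 CPM in WT and at 1.11, 0.764, 2.33, 1.45 and 1.22 CPM in KO. The lowest WT library held several times the highest KO library, and the gene fell by 4.31 on the log2 scale (SE 0.705, adjusted p = 0.00162). Slc10a2, the sodium-dependent bile acid transporter, was at 18, 24.9, 46.7, 186 and 48.8 CPM in WT and at 1.02, 1.41, 2.43, 5.08 and 15.6 CPM in KO (−3.68, adjusted p = 0.0158). The highest KO library and the lowest WT library were close. Nat8, an N-acetyltransferase gene with near-identical neighbours whose reads the counting could share, was at 4.98, 6.93, 27.9, 33.2 and 37.1 CPM in WT and at 0.926, 1.04, 0.346, 0.871 and 0.486 CPM in KO (−4.88, adjusted p = 0.0267). The call of Slc10a2 was lost without WT 4 (adjusted p = 0.0539, with 4.12e-05 to 0.156 over all alternatives), and that of Nat8 without any of KO 1, KO 2, KO 3, WT 3, WT 4 or WT 5 (adjusted p up to 0.0676).

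**Figure D2:**
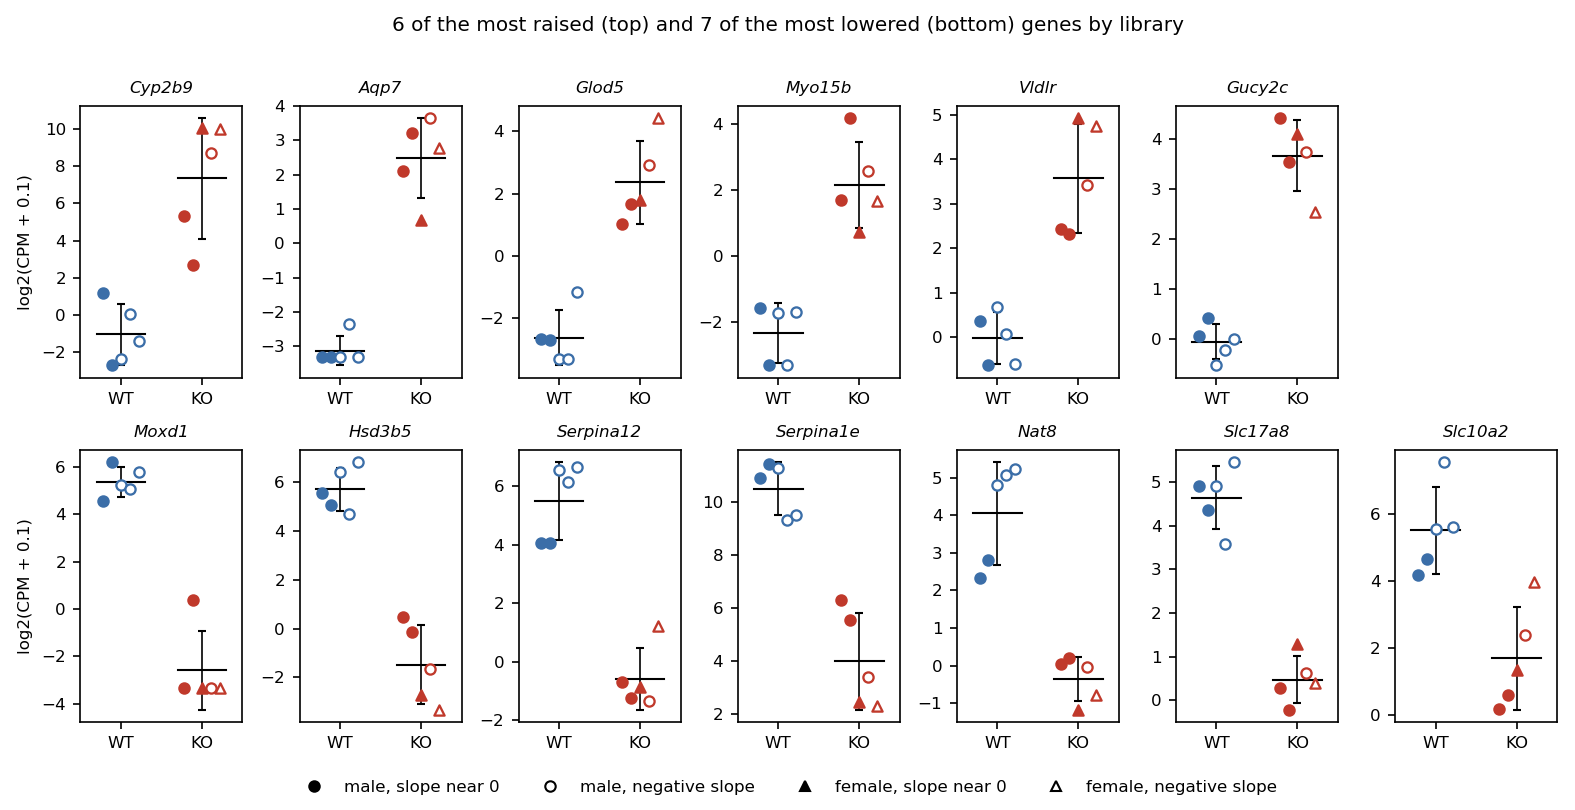
Level of 6 of the most raised genes (top) and 7 of the most lowered genes (bottom) in each library on a log2 scale of CPM plus 0.1, with replicates 1 to 5 of each group from left to right. Circles are male and triangles female mice, open symbols are libraries with a negative length slope, and lines and bars give the mean and SD on the plotted scale. In all 13 genes the KO and WT points do not overlap, which is how these genes were chosen.

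Genes that bring fatty acids into the cell rose in part. Of 16 measured genes of fatty acid uptake and binding, 5 rose and none fell, with a median log2 fold change of 0.83. Cd36, the membrane fatty acid translocase (chr5:17781690-17888801, minus strand), was at 53.1, 71.1, 124, 309 and 197 CPM in WT and at 898, 813, 781, 1501 and 2924 CPM in KO. The groups did not overlap and the female KO 5 was the highest. In the 3 KO males against the WT males its log2 fold change was 2.83, close to the 3.20 (SE 0.475) of all libraries. Slc27a1, a fatty acid transport protein typical of muscle and fat, was at 33.6, 42.7, 26.6, 19.7 and 34 CPM in WT and at 213, 132, 177, 145 and 88.8 CPM in KO. Each KO library was above the highest WT library (2.27, SE 0.326, adjusted p = 0.000571). Vldlr, the receptor for very low density lipoprotein (chr19:27216484-27254231, plus strand), was at 1.19, 0.542, 1.49, 0.95 and 0.554 CPM in WT and at 5.33, 4.87, 30.3, 10.6 and 26.8 CPM in KO. It rose in all KO libraries, most in the females KO 3 and KO 5 (4.06, SE 0.777, adjusted p = 0.00453). Slc27a4, another fatty acid transport protein, and Acsl4, an acyl-CoA synthetase that favours arachidonate, also rose (1.33, adjusted p = 0.0183, and 1.48, adjusted p = 0.0243). Fabp1, the liver fatty acid binding protein, had 4956 ± 3243 CPM in WT, against 5061 ± 4156 CPM in KO and was not called. Without KO 1 or KO 2 the calls of Slc27a4 and Acsl4 were lost, and that of Acsl4 also without WT 3 or WT 5 (adjusted p up to 0.0645 and 0.0669, within 0.000178 to 0.386 and 0.00204 to 0.179 over all alternatives).

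Lipid droplet genes rose as well, among them proteins that build droplets and lipases that empty them. Of 16 measured, 5 rose (31.2%, where 3.03% of all genes rose) and none fell (median 0.49). Cidec, which drives the fusion of droplets (chr6:113424634-113435760, minus strand), was at 20.3, 11.5, 67.2, 70.6 and 41.6 CPM in WT and at 370, 442, 99.9, 211 and 352 CPM in KO. The lowest KO library, KO 3, was above the highest WT library (2.81, SE 0.457, adjusted p = 0.00153). Fitm2, which partitions triglyceride into droplets at the endoplasmic reticulum, rose from 40.8 ± 9.56 to 132 ± 64.7 CPM (1.69, SE 0.302, adjusted p = 0.00288). Pnpla2, the adipose triglyceride lipase, was at 105, 118, 30.4, 36.5 and 33 CPM in WT and at 457, 442, 175, 149 and 66.4 CPM in KO. The level followed the length slope within each group: WT 1 and WT 2 were the highest WT libraries and KO 1 and KO 2 the highest KO libraries. Pnpla2 rose by 1.99 on the log2 scale (SE 0.482, adjusted p = 0.0208), Lipe, the hormone-sensitive lipase, by 1.28 (adjusted p = 0.0213) and Bscl2, which encodes seipin, by 1.12 (adjusted p = 0.0244). These last 3 calls were lost without KO 1, KO 2 or WT 3, those of Pnpla2 and Bscl2 also without WT 4, and that of Bscl2 without WT 5 (adjusted p up to 0.0676, 0.0798 and 0.0722). Without KO 1, KO 2 or WT 3, 2 members of the list were called. Plin2, the main droplet coat protein of hepatocytes, had 1119 ± 586 CPM in WT, against 2150 ± 1297 CPM in KO, with overlap (0.94, adjusted p = 0.188). The 5 adipose tissue markers summed to 210.9 to 1134 CPM in WT and 124.7 to 350.4 CPM in KO. Nearly all of that was Car3, a carbonic anhydrase that liver also expresses (log2 fold change −1.01, adjusted p = 0.323). Cfd, which encodes adipsin, was at 0 to 1.11 CPM in WT and 0.148 to 5.08 CPM in KO (2.54, unadjusted p = 0.0254, adjusted p = 0.178). Adipoq was at 0 to 0.208 CPM in WT and 0 to 0.365 CPM in KO, Retn had 1 count in all, and Lep was at 0 in all 10 libraries. None of the 5 was called, and their part in the lipid droplet result was not tested.

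Of 12 measured genes of triglyceride synthesis, 3 rose (25.0%, where 3.03% of all genes rose) and none fell (median 0.50). Dgat1, which adds the last fatty acid to diacylglycerol, was at 24.3, 27.6, 26.8, 28.5 and 27.5 CPM in WT and at 66.7, 53.2, 37.3, 47.8 and 39.4 CPM in KO. WT was narrow and every KO library lay above it (0.86, SE 0.163, adjusted p = 0.0045). Agpat9, the older symbol of Gpat3, which starts the pathway at glycerol 3-phosphate, rose from 9.92 ± 3.14 to 40.5 ± 16.3 CPM (2.03, SE 0.397, adjusted p = 0.00548). Lpin3, a phosphatidate phosphatase, rose by 1.09 (adjusted p = 0.0257), a call lost without KO 1, KO 2 or WT 3 (adjusted p up to 0.0938). Dgat2, the other diacylglycerol acyltransferase, had a log2 fold change of −0.46 (adjusted p = 0.353).

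Genes of fatty acid oxidation rose in part, in peroxisomes and in mitochondria. Of 24 measured, 5 rose (20.8%, where 3.03% of all genes rose) and none fell. A log2 fold change above 0 was found in 23 (median 0.79). Ehhadh, the peroxisomal bifunctional enzyme, was at 981, 756, 5150, 1953 and 1548 CPM in WT and at 13638, 14680, 3398, 11184 and 13635 CPM in KO. All KO libraries but KO 3 exceeded every WT library, and WT 3 stood apart from the other WT libraries (2.44, SE 0.481, adjusted p = 0.00567). Cyp4a31, a fatty acid hydroxylase in a family of near-identical genes, rose by 2.01 (adjusted p = 0.0234), Acot2, a mitochondrial acyl-CoA thioesterase, by 2.40 (adjusted p = 0.0374) and Acadl, the long-chain acyl-CoA dehydrogenase, by 0.82 (adjusted p = 0.0351). Cpt1a, which admits fatty acids into mitochondria, had 818 ± 282 CPM in WT, against 1110 ± 439 CPM in KO (0.44, adjusted p = 0.439), and was not called. Without KO 1 or KO 2, as without WT 4, 1 member was called, and leaving out KO 5 gave 7. Ehhadh kept its call in all 10 fits without a library, while Acot2 lost it without any library but KO 3 or KO 4 (adjusted p up to 0.0732), Acadl without KO 1, KO 2, WT 2, WT 3 or WT 4 (0.0989) and Cyp4a31 without KO 1, KO 2, WT 4 or WT 5 (0.0615).

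Enzymes of the TCA cycle rose, and so did the kinase that shuts pyruvate out of it. Of 23 measured genes of the cycle and of pyruvate dehydrogenase, 5 rose and none fell, and 22 were above 0 (median 0.41). The 5 are 21.7% of the list, where 3.03% of all genes rose. Idh3a, the catalytic subunit of NAD-dependent isocitrate dehydrogenase, was at 31.6, 36, 21.2, 13.6 and 28.2 CPM in WT and at 172, 153, 59.9, 121 and 40.9 CPM in KO. Every KO library lay above every WT library, with KO 1 and KO 2 the highest, and Idh3a rose by 2.06 on the log2 scale (SE 0.352, adjusted p = 0.00202). Dlst, a subunit of the oxoglutarate dehydrogenase complex, rose from 213 ± 18.6 to 423 ± 90.4 CPM (0.99, adjusted p = 0.00226), and Mdh2, the mitochondrial malate dehydrogenase that makes oxaloacetate, from 114 ± 24.9 to 227 ± 59.8 CPM (0.99, adjusted p = 0.00723). Pdk4, which phosphorylates and inhibits pyruvate dehydrogenase, was at 12.1, 12.2, 15.5, 19.6 and 6.03 CPM in WT and at 327, 426, 22.1, 40.1 and 67.9 CPM in KO. All KO libraries were above WT, but KO 1 and KO 2 were several times higher than the other 3 (3.76, SE 0.7, adjusted p = 0.004). Cs, the citrate synthase, had 67.4 ± 12.7 CPM in WT, against 84 ± 18.9 CPM in KO (0.32, adjusted p = 0.384). These 5 calls held in all 10 fits without a library, and with sex and the length slope as terms 11 members rose and none fell, where 6.48% of all genes rose. In the 5 libraries with a negative slope alone no member was called, where 0.353% of all genes were. Of 26 nuclear-encoded genes of the respiratory chain, Cyc1 alone was called (0.59, adjusted p = 0.0389). That is 3.85% of the list, where 5.53% of all genes were called. The call of Cyc1 was lost without KO 1, KO 2, KO 4, WT 1, WT 2, WT 3 or WT 4 (adjusted p up to 0.106). None of the 13 mitochondrially encoded genes was called, none had an unadjusted p under 0.05, DESeq2 called none and limma voom called 1.

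**Figure D3:**
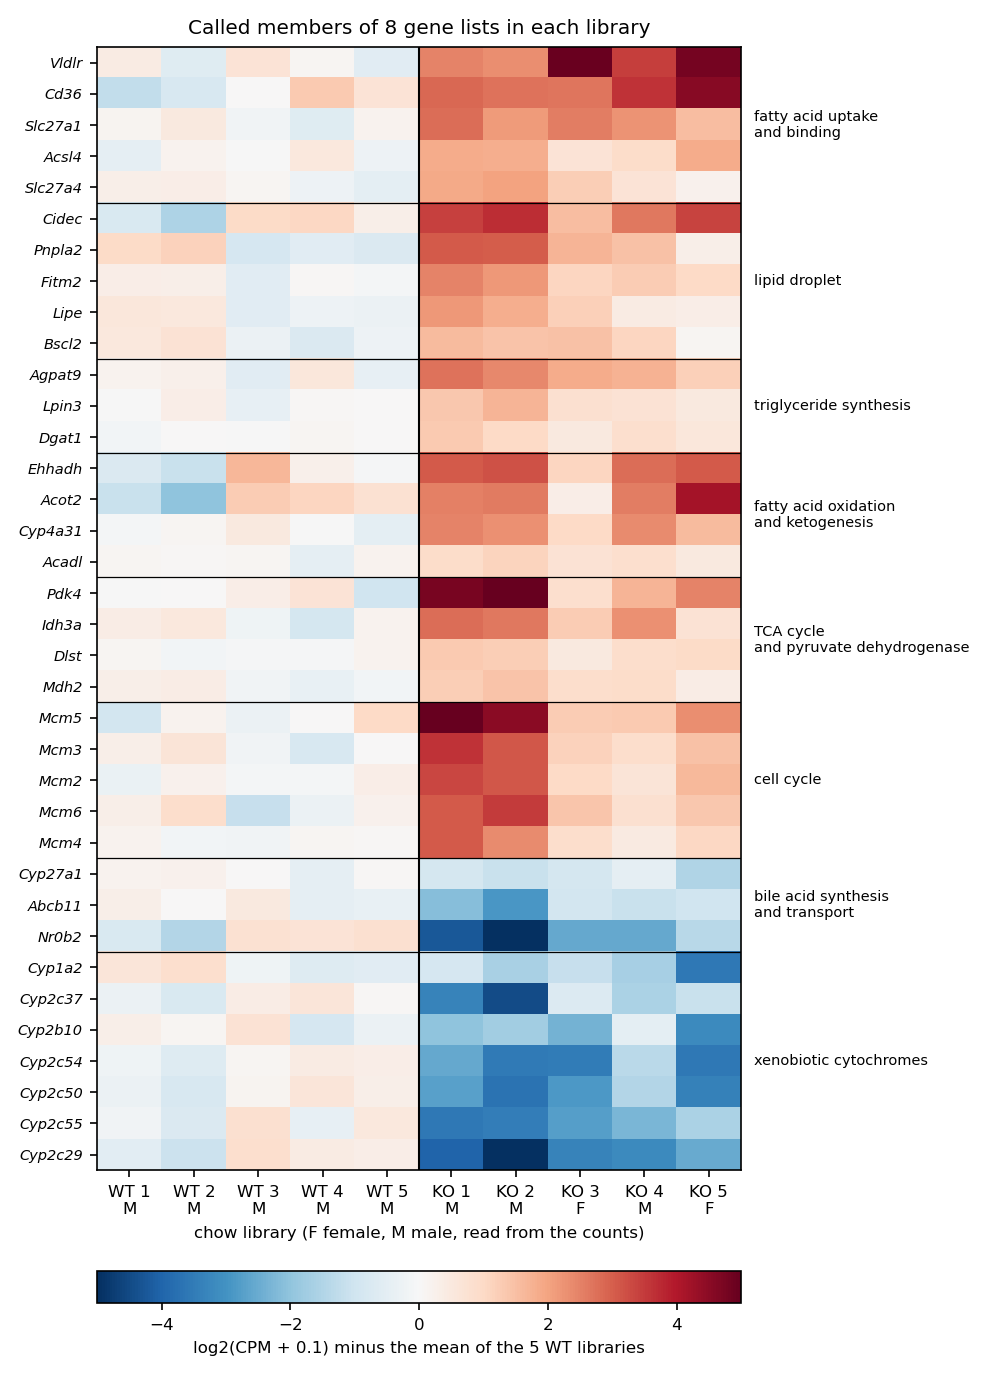
Called members of 8 gene lists (rows) in the 10 chow libraries (columns), coloured by log2 CPM relative to the WT mean, with colours stopping at 5 in either direction. Members of the lipid lists, the TCA cycle and the cell cycle are mostly above the WT mean in KO, with KO 1 and KO 2 often the strongest, and bile acid genes and xenobiotic cytochromes are below it.

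Some regulators of glucose use and lipogenesis fell, while the enzymes of fatty acid synthesis did not move together. Gckr, a regulator of glucose phosphorylation in hepatocytes, was at 89.2, 104, 104, 79.8 and 160 CPM in WT and at 32.3, 22.4, 66, 45.2 and 62.5 CPM in KO. All KO libraries lay below WT (−1.23, adjusted p = 0.0213). Mlxipl, which encodes the glucose-responsive factor ChREBP, fell from 95.3 ± 16.1 to 41.6 ± 13.9 CPM (−1.19, adjusted p = 0.0367), and Thrsp, a lipogenic gene induced by feeding, from 30.9 ± 35.8 to 5.59 ± 2.49 CPM (−2.47, adjusted p = 0.041). Pklr, the liver pyruvate kinase, had 40.1 ± 12.3 CPM in WT, against 16.7 ± 8.83 CPM in KO, just outside the threshold (−1.27, adjusted p = 0.0507). Eno1, a glycolytic enzyme, rose by 1.12 (adjusted p = 0.0292). Over all genes 5.53% were called. Of 16 measured genes of glycolysis and fructose entry, 1 rose and 2 fell (18.8% called, median −0.10). Of 15 lipogenic genes 2 rose and 2 fell (26.7% called, median 0.19). Those that rose were Acacb, the acetyl-CoA carboxylase whose product restrains fatty acid oxidation (1.67, adjusted p = 0.0292), and Elovl5, an elongase of polyunsaturated fatty acids (1.24, adjusted p = 0.0208). Fasn, the fatty acid synthase, was at 28.1 ± 17.6 and 29 ± 12.6 CPM (0.04, adjusted p = 0.974), and Scd1, the stearoyl-CoA desaturase, at 2893 ± 1465 and 1116 ± 885 CPM (−1.37, adjusted p = 0.284). Neither Fasn nor Scd1 was called. Without KO 1 or KO 2 no lipogenic gene was called. Calls were also lost for Gckr without KO 1, KO 2 or WT 5 (adjusted p up to 0.0663), for Eno1 without KO 1, KO 2, KO 4, WT 3 or WT 4 (0.0766), for Elovl5 without KO 1 or KO 2 (0.0715), for Acacb without WT 3, WT 4 or WT 5 (0.0986 at most, KO 1 and KO 2 included), for Mlxipl without KO 4, WT 1, WT 2 or WT 3 (0.102 at most, likewise) and for Thrsp without KO 3, KO 4 or WT 5 (0.19 at most, likewise).

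Of the 6 measured genes of the MCM helicase, which licenses and unwinds DNA for replication, 5 rose, while edgeR called no other cell cycle gene of the list. Of 18 measured cell cycle genes 5 rose, none fell, and all 5 were MCM subunits (median of the list 1.07). The 5 are 27.8% of the list, where 3.03% of all genes rose. Of the 18, 10 had an unadjusted p under 0.05. DESeq2 called 8 higher, where it called 9.63% of all genes. In the male libraries alone 7 rose, where 3.51% of all genes rose. The calls in those 2 fits thus included genes other than MCM subunits. Mcm5 was at 0.355, 0.867, 0.597, 0.76 and 1.59 CPM in WT and at 27.1, 19.3, 1.98, 2.03 and 4.13 CPM in KO. Every KO library was above WT, and KO 1 and KO 2 were far above the other 3 KO libraries (3.70, SE 0.67, adjusted p = 0.00327). Mcm2 rose from 1.86 ± 0.372 to 9.7 ± 7.75 CPM (2.38, SE 0.444, adjusted p = 0.004) and Mcm3 from 2.03 ± 0.763 to 11 ± 9.41 CPM (2.43, SE 0.456, adjusted p = 0.00421). Mcm4 rose by 1.94 (adjusted p = 0.00618) and Mcm6 by 2.28 (adjusted p = 0.0173), the latter not without KO 1 or KO 2 (adjusted p up to 0.065). In the libraries with a negative slope alone, where KO 1, KO 2 and KO 3 are absent, Mcm5 differed by 1.62 and Mcm2 by 1.19, and neither was called. Mki67, the proliferation marker of dividing cells, had 1.52 ± 0.737 CPM in WT, against 3.07 ± 0.792 CPM in KO (0.99, adjusted p = 0.217), and Top2a, the mitotic topoisomerase, at 1.06 ± 0.257 and 2.82 ± 1.32 CPM (1.40, adjusted p = 0.0657). The cyclins and kinases of mitosis in the list were not called, among them Cdk1 with a log2 fold change of 0.00.

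Since 5 of the MCM genes rose, MCM promoters are shown, with the letters TTTGGCGC, a core site of E2F factors that act on replication genes, in capitals on either strand. The stretches are the 250 bases before the start of the gene, read 5′ to 3′ on the gene's strand from RefSeq (GRCm38.p6), at chr8:75109259-75109508 (plus strand) for Mcm5, chr1:128359706-128359955 (minus strand) for Mcm6 and chr6:88898781-88899030 (minus strand) for Mcm2.
Mcm5: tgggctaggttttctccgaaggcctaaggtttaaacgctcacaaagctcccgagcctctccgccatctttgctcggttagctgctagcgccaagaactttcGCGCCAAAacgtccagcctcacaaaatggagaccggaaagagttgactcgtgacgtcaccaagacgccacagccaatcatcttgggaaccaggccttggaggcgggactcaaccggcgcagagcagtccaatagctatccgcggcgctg
Mcm6: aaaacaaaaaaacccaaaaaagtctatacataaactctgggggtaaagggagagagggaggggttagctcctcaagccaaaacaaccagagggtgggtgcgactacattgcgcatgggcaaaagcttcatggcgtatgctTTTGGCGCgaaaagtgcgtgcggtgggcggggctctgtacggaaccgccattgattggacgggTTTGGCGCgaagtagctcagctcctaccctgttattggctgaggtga
Mcm2: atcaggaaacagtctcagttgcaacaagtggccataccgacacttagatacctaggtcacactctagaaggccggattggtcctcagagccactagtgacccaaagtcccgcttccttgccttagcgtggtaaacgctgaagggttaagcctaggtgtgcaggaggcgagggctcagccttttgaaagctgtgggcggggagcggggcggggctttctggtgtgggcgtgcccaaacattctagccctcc
Mcm6 holds the letters in both of its marked places on its own strand, Mcm5 holds them on the opposite strand, and Mcm2 does not hold them in this window. In windows of 300 bases, which run 50 bases past the start, the letters were found in 3 of the 5 MCM genes with a promoter in the table (Mcm3, Mcm5 and Mcm6), in 1.15% of 10408 tested genes and in 0.514% of all 32851 windows. Mcm7, the fifth of these genes, did not hold them and was not called (0.67, adjusted p = 0.156). Of the 14 called lipid genes with a promoter in the table, none held the peroxisome proliferator response element (AGGTCA repeated directly with any base between), which 0.0576% of the tested genes held, and 3 (Lipe, Lpin3 and Slc27a1) held the E-box CACGTG, which 11.6% of the tested genes and 8.09% of all 27025 genes held. A match of letters is a description of the sequence and shows no binding.

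Bile acid genes fell in part. Of 20 measured genes of synthesis and transport, 3 fell (15.0%, where 2.49% of all genes fell) and none rose (median −0.81). Abcb11, the pump that exports bile salts into bile, was at 445, 367, 501, 264 and 281 CPM in WT and at 82.1, 47.2, 192, 166 and 182 CPM in KO. The groups did not overlap (−1.47, SE 0.315, adjusted p = 0.00946). Nr0b2, which encodes the repressor SHP, was at 14, 8.56, 40.5, 38.3 and 42.1 CPM in WT and at 1.16, 0.563, 3.96, 3.99 and 9.11 CPM in KO. WT 2 was the lowest WT library and KO 5, the highest KO library, reached it (−2.94, SE 0.665, adjusted p = 0.0139). Cyp27a1, the sterol hydroxylase of the alternative pathway, fell from 332 ± 55.7 to 172 ± 44.9 CPM (−0.95, adjusted p = 0.0116). Cyp7a1, the rate-limiting enzyme of the classical pathway, was at 131, 117, 167, 102 and 293 CPM in WT and at 3.1, 25.4, 159, 35.4 and 99.8 CPM in KO. The 3 male KO libraries were far below every WT library, the female KO 5 was just below them and the female KO 3 was within their range. The difference was not called over all libraries (−1.33, adjusted p = 0.231). In the male libraries alone Cyp7a1 fell by 2.93, with an adjusted p of 0.0168 (0.00235 to 0.558 over all alternatives), and 7 members fell, where 3.3% of all genes fell in that fit. Cyp8b1, which makes cholic acid, had 721 ± 110 CPM in WT, against 860 ± 171 CPM in KO (0.25, adjusted p = 0.666).

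Cytochromes of drug metabolism, most of them of the Cyp2c family, fell. Of 16 measured genes 7 fell (43.8%, where 2.49% of all genes fell) and none rose (median −1.30). Cyp2c29 was at 4268, 2921, 11167, 8129 and 7852 CPM in WT and at 383, 125, 610, 686 and 1071 CPM in KO. The highest KO library was well below the lowest WT library (−3.58, SE 0.593, adjusted p = 0.00168). Cyp2c50 was at 2072, 1456, 2794, 3868 and 3093 CPM in WT and at 386, 195, 341, 921 and 244 CPM in KO (−2.67, SE 0.432, adjusted p = 0.00151), again without overlap. Cyp2c54 fell from 1070 ± 295 to 170 ± 138 CPM (−2.66, adjusted p = 0.00421), Cyp2c55 by 2.82 (adjusted p = 0.0404) and Cyp2c37 by 1.76 (adjusted p = 0.037). Cyp2b10, the classical target of the receptor CAR, fell by 1.77 (adjusted p = 0.0304), and Cyp1a2, a caffeine-metabolising enzyme of pericentral hepatocytes, by 1.66 (adjusted p = 0.0234). Cyp3a11 and Cyp2e1, other abundant cytochromes, were not called (−0.47, adjusted p = 0.612, and −0.44, adjusted p = 0.449). The counting could split reads between these near-identical genes, so that single values within the family are uncertain. The calls of Cyp2c29, Cyp2c50 and Cyp2c54 held without each library. Cyp2c55 lost its call without any library but KO 5 or WT 2 (adjusted p up to 0.112), Cyp2c37 without KO 1, KO 2, KO 4, WT 3, WT 4 or WT 5 (0.0935), Cyp2b10 without KO 1, KO 2, KO 3, WT 1 or WT 3 (0.088) and Cyp1a2 without KO 2, WT 1 or WT 2 (0.0622).

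Sex-biased liver genes differed, and the male libraries show which differences hold without the 2 female KO mice. Of 23 measured female-biased genes 11 rose (47.8%) and none fell (median 6.44). Of 21 male-biased genes 3 fell (14.3%) and none rose (median −2.22). Over all genes 3.03% rose and 2.49% fell. In the male libraries alone, 2 female-biased genes rose, where 3.51% of all genes rose, and 1 fell (median −0.46), while 13 male-biased genes fell and none rose (median −1.95), where 3.3% of all genes fell. Cyp2b9, a female-biased cytochrome, was at 39.7, 6.31, 1041, 408 and 1008 CPM in KO and at 2.19 CPM or less in WT, with log2 fold changes of 9.41 over all libraries and 7.67 in males. Cyp3a16, in contrast, was at 134 CPM in KO 3 and 963 CPM in KO 5 and at 0.0726 to 0.0926 CPM in the 3 male KO libraries, within the WT range. Its log2 fold change was 10.80 over all libraries (adjusted p = 0.037) and −0.46 in males. A1bg likewise was at 76.3 CPM in KO 3 and 4088 CPM in KO 5, and at 0.362 to 0.726 CPM in the KO males, where WT had up to 1.04 CPM. For these genes sex and genotype cannot be told apart in the pooled comparison, whereas Cyp2b9 was higher in every male KO library than in every WT library. The gene that fell in males was Atp6v0d2 (−3.30). Cyp3a16, A1bg and the related Cyp3a41a, Cyp3a41b and Cyp3a44 lost their calls without KO 5 or any WT library (adjusted p up to 0.0874, 0.109, 0.0878, 0.0839 and 0.0844). Cyp2b13 lost its call without WT 2, WT 3, WT 4 or WT 5 (0.0592), Cyp2a4 without WT 3 or WT 4 (0.0591), Cyp39a1 without KO 4 or WT 4 (0.0588) and Fmo2 without any library but KO 5 (0.122).

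Male-biased genes were lower in KO mice of both sexes than in the WT mice, all of them male. Serpina1e, an alpha-1-antitrypsin gene in a cluster of near copies, was at 1947, 2790, 2495, 648 and 733 CPM in WT and at 78.4, 47.3, 5.4, 10.4 and 4.86 CPM in KO. The male KO libraries 1, 2 and 4 were below every WT library, and the females were the lowest together with KO 4 (−5.88, SE 1.31, adjusted p = 0.0127). Its log2 fold change in males was −5.24. Mup20, the major urinary protein darcin that marks male scent, was at 449, 543, 6013, 4403 and 1853 CPM in WT and at 82.1, 81.7, 3.46, 94.5 and 7.29 CPM in KO. The groups did not overlap, but the spread within WT was wide and the gene was not called over all libraries (−5.62, adjusted p = 0.0735). In males Mup20 fell by 4.94, with an adjusted p of 0.00692 (0.000871 to 0.247 over all alternatives). Cyp7b1, an oxysterol hydroxylase of the male liver, was at 267, 304, 934, 483 and 472 CPM in WT and at 110, 204, 27.8, 69.2 and 32 CPM in KO. All KO libraries were lower, the females most (−2.47, adjusted p = 0.133, and −1.95 in males). In 14 of the 21 genes the KO group lay wholly below the WT group, where 2.65% of all genes did so. In 14 the 3 KO males lay wholly below it, where 6.88% of all genes did so. Hsd3b5 and Moxd1 were called, but without almost any library they were not: Hsd3b5 kept its call only without WT 2 and Moxd1 in no such fit (adjusted p up to 0.102 and 0.114). All 30 counts of Moxd1 in KO came from KO 2. Of the growth hormone and IGF axis, 14 genes were measured. Only Ghr, the growth hormone receptor, was called (7.14% of the list, near the 5.53% of all genes). It was at 471, 465, 350, 317 and 423 CPM in WT and at 164, 150, 325, 264 and 163 CPM in KO. Only the female KO 3 overlapped WT (−0.93, SE 0.238, adjusted p = 0.0276), and the call was lost without KO 1, KO 2, KO 5, WT 1, WT 2 or WT 5 (adjusted p up to 0.0848).

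**Figure D4:**
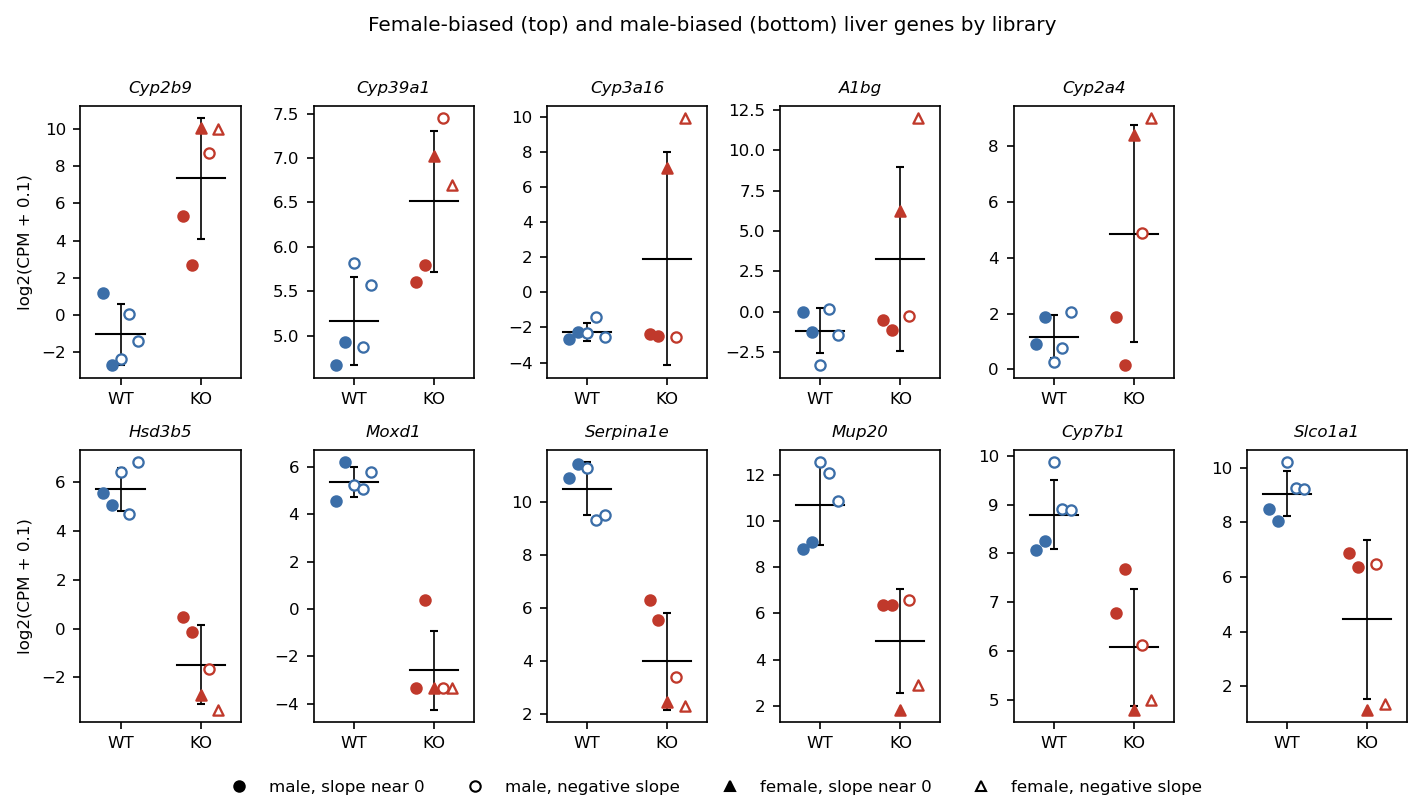
Level of 5 female-biased (top) and 6 male-biased (bottom) liver genes in each chow library on a log2 scale of CPM plus 0.1, with circles for male and triangles for female mice and open symbols for a negative length slope. All WT mice are male, so the female KO mice have no WT mice of their sex beside them. Against these WT males, Cyp2b9 is higher in male and female KO mice, and Cyp3a16 and A1bg in the 2 females only. The male-biased genes are lower in KO mice of both sexes than in the WT males.

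Fibrosis genes held 2 calls and inflammation genes none. Of 18 measured fibrosis genes 2 rose and none fell (median 0.43), both of them chains of the basement membrane collagen IV. That is 11.1% of the list, where 5.53% of all genes were called. Col4a1 was at 28.2, 25.9, 14.3, 14.2 and 11.5 CPM in WT and at 72.6, 111, 37.6, 30.8 and 55.4 CPM in KO. All KO libraries were above WT (1.71, SE 0.337, adjusted p = 0.00571). Its neighbour Col4a2 rose by 1.56 (adjusted p = 0.037), but not without KO 1, KO 2, WT 3, WT 4 or WT 5 (adjusted p up to 0.144). Col1a1, the chief fibrillar collagen, had 3.91 ± 2.78 CPM in WT, against 3.69 ± 3.1 CPM in KO (−0.09, adjusted p = 0.95). None of 13 inflammation genes and none of 6 genes of PDGF ligands and receptors was called, and none had an unadjusted p under 0.05; DESeq2 called none in either list and limma voom called 3 in each. Of 10 genes of lipid-associated macrophages none was called, 3 had an unadjusted p under 0.05, DESeq2 called none and limma voom called 1.

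Interferon-stimulated genes lay below WT throughout the list. All 16 measured had a log2 fold change below 0 (median −0.51), and 2 were called (12.5%), where 2.49% of all genes were called lower. Isg15, a ubiquitin-like modifier, was at 8.77, 7.91, 12, 11.9 and 7.97 CPM in WT and at 2.64, 2.85, 6.09, 6.53 and 7.54 CPM in KO. KO 5 was just below the lowest WT library (−0.92, adjusted p = 0.0441). Mx2, of the antiviral GTPase family but annotated in GENCODE as a polymorphic pseudogene, fell from 6.41 ± 2.54 to 2.7 ± 0.823 CPM (−1.26, adjusted p = 0.0243). Neither call held without KO 1, KO 2 or WT 1, and that of Isg15 was also lost without WT 3, WT 4 or WT 5 (adjusted p up to 0.127 for Isg15 and 0.0769 for Mx2). In the male libraries alone 6 members fell, again with none higher, where 3.3% of all genes fell in that fit.

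Genes of insulin and PI3-kinase signalling changed in both directions. Of 19 measured 2 rose and 1 fell (median 0.08). That is 15.8% of the list, where 5.53% of all genes were called. Pik3c2g, a class II PI3-kinase found in liver, rose from 4.22 ± 1.19 to 9.76 ± 3.27 CPM (1.21, SE 0.281, adjusted p = 0.0166) and Mtor, the growth-controlling kinase, from 13.8 ± 4.4 to 32.4 ± 15.8 CPM (1.23, adjusted p = 0.0309). Neither was called without KO 1 or KO 2, and Mtor also lost its call without WT 3, WT 4 or WT 5 (adjusted p up to 0.0548 for Pik3c2g and 0.103 for Mtor). Insr, the insulin receptor, had a log2 fold change of 0.15 (adjusted p = 0.805). Esrra, a nuclear receptor that acts on mitochondrial genes, rose from 26.6 ± 4.63 to 42.1 ± 8.45 CPM (0.66, adjusted p = 0.0371), but not without KO 1, KO 2, WT 1, WT 3 or WT 4 (adjusted p up to 0.124). Of 17 nuclear receptors and coactivators Esrra was the only one called higher, and Nr0b2 the only one called lower. That is 11.8% of the list, where 5.53% of all genes were called.

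The lists of amino acid, stress and plasma protein genes held at most 2 calls each. In the lists with a call, the share called ran from 5.0% (acute phase and metallothionein) to 11.8% (glutathione and NRF2 targets). Over all genes it was 5.53%, so these lists were near or above that share. Psat1, an enzyme of serine synthesis, was at 0.474, 0.325, 0.199, 0.38 and 0.208 CPM in WT and at 2.92, 6.51, 0.396, 2.47 and 4.68 CPM in KO. All KO libraries but KO 3 were above WT, and Psat1 was the only one of 18 stress response genes called (3.37, SE 0.641, adjusted p = 0.00453). Agxt, the alanine-glyoxylate aminotransferase, rose from 288 ± 50.6 to 680 ± 197 CPM without overlap (1.24, adjusted p = 0.00825), and Bhmt, which remethylates homocysteine, fell by 1.33 (adjusted p = 0.0456). These were the 2 calls among 19 genes of amino acid catabolism. Srxn1, a sulfiredoxin, rose from 59 ± 14.2 to 122 ± 39.7 CPM (1.05, adjusted p = 0.0109), and Gsta1, with 2 counts in WT and a KO mean of 0.543 ± 0.552 CPM, was also called; they were the 2 of 17 glutathione and NRF2 target genes. Saa4, an apolipoprotein of the serum amyloid family, fell from 321 ± 108 to 60.8 ± 52.2 CPM (−2.40, SE 0.572, adjusted p = 0.019) as the only call of 20 acute phase and metallothionein genes. Ces2a, a carboxylesterase, was the only call of 12 in its family (−0.89, adjusted p = 0.0381). The calls of Bhmt (without KO 1, KO 2, KO 5, WT 1, WT 2, WT 3 or WT 5), of Gsta1 (without KO 2 or any WT library) and of Ces2a (without any library but KO 4, KO 5 or WT 2) were lost, with an adjusted p up to 0.153, 0.128 and 0.102. No call was made among 8 urea cycle genes (2 with an unadjusted p under 0.05), 23 genes of cholesterol synthesis and uptake (5), 18 apolipoprotein and assembly genes (6) and 18 clock genes (3). In those 4 lists DESeq2 called 0, 2, 1 and 1, and limma voom called 6, 6, 12 and 2. Apoe, the apolipoprotein of remnant lipoproteins, had 21641 ± 8172 CPM in WT, against 19013 ± 6929 CPM in KO (−0.19, adjusted p = 0.762).

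**Figure D5:**
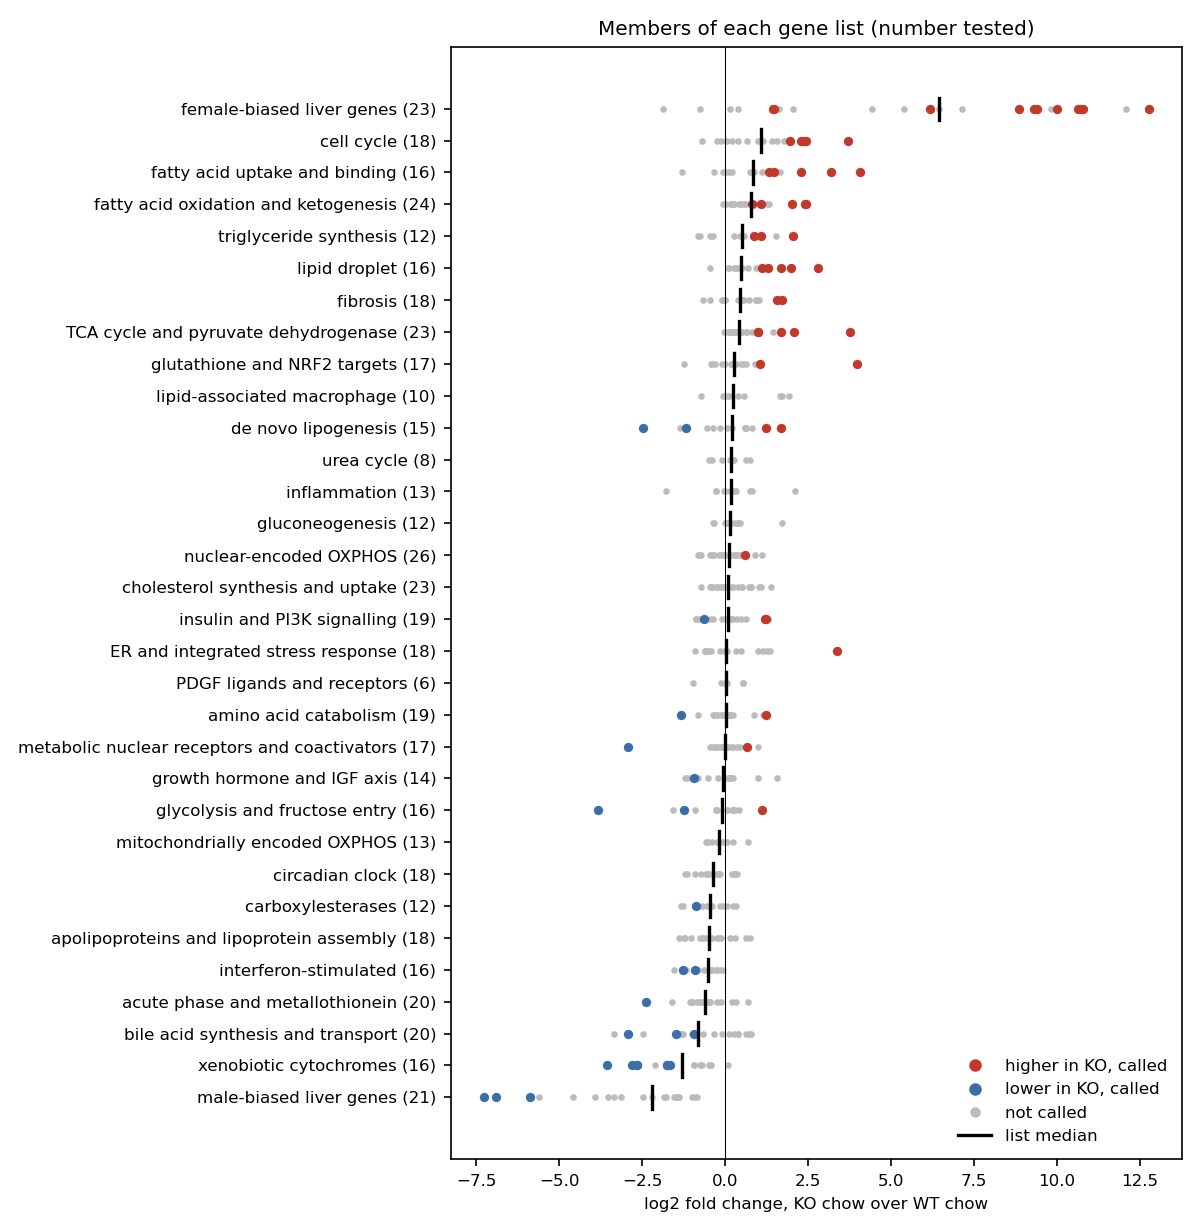
Log2 fold change of KO against WT on chow for each tested member of the 32 gene lists, with called members in red (higher) or blue (lower) and a black line at each list's median. The medians of the female-biased list (6.44) and the male-biased list (−2.22) are farthest from 0. Next are those of the xenobiotic cytochromes (−1.30) and the cell cycle (1.07).

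Whether the genotype effect on chow differs from that on the NASH diet was tested as the interaction in the model of all 20 libraries. It was called in 20 genes (0.139% of those tested), 8 with a larger and 12 with a smaller log2 fold change on the NASH diet. Cidec rose more on the NASH diet than on chow, by 4.17 on the log2 scale (SE 0.656, adjusted p = 0.0111). The log2 fold change of Pik3c2g on the NASH diet differed from that on chow by −2.28 (SE 0.402, adjusted p = 0.0315). For Cyp2b9 the difference was −9.79 (adjusted p = 0.0348). In the male libraries alone it was 1.63, with the sign turned. Those of Cidec and Pik3c2g were 4.68 and −1.54, and none of the 3 was called. The sexes are unevenly spread over the diets, with 1 male in WT NASH and 4 in KO NASH. For Pck1 itself the interaction was 0.15 (adjusted p = 0.966), so that no difference between the diets in the drop of Pck1 was detected.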

How the data were processed

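The values analysed are raw counts per gene symbol, as the authors deposited them for 20 livers. Reads were aligned with HISAT2 2.0.4 to GRCm38, per the submitters' processing notes; not given in the sources used here are the counting program, its annotation and its use of strand, so genes of near-identical families and overlapping genes are uncertain. The columns of the second diet carry another abbreviation and were taken as the NASH groups, since the remaining ones name chow.

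In R 4.3.3, edgeR 4.0.16 (filterByExpr, minimum count 10, TMM scaling) kept 14440 of 26350 genes with a count, of 46095 in the table, with 99.91% of the counts. All 20 libraries entered 1 model with 4 group coefficients (16 residual degrees of freedom, common biological coefficient of variation 39%), and genes were called by the quasi-likelihood test at a Benjamini-Hochberg adjusted p under 0.05. Standard errors come from the log2 fold change and the F statistic. P-values measure the spread between these mice. On simulated counts for the 14440 genes, with 200 changed 4-fold, 82% were recovered for this comparison and 2.96% of the calls were false. The simulated counts held no sex difference, no length slope and no correlation between genes. The false share therefore does not apply to calls that depend on these features of the libraries.

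The members and gene lists were chosen with earlier results of these data known. Named are Pck1 and Pck2, the 8 most raised and 8 most lowered called genes with at least 5 CPM and no overlap (predicted genes passed over), and in each of the 32 lists the 3 most changed called genes, or else the most abundant. Other members of the lists are named for their known roles and stand outside this rule. A few genes that the rule or the lists hold are not reported here and not plotted by name, although the counts of called genes and of list members include them. Positions are from GENCODE M21 (GRCm38), matched by symbol. A library counted as male if Y-linked genes held 100 or more counts. The length slope is that of log2 CPM, relative to all libraries, on log2 exonic length over 9518 genes whose mean log2 CPM reached 2. Promoters are RefSeq windows of 250 bases before to 50 after the start, searched on both strands for TTTGGCGC, CACGTG, TGACGTCA, TTCNNNGAA and AGGTCA repeated directly with any base between; matches may overlap.

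Alternatives were RLE scaling, scaling without the 20 most abundant genes, no filter, a filter of 5 CPM, DESeq2 1.42.0, limma 3.58.1 voom with sample weights, the 2 chow groups alone, the replicate number as a block, sex and length slope as terms, male libraries alone, libraries with a slope above −0.1, NASH-diet KO libraries 1 and 5 summed, a threshold of 1 on the log2 fold change, and leaving out each chow library. Libraries with a slope below −0.1 alone were added after seeing the data. NASH-diet KO libraries 1 and 5 had the highest correlation of log2 CPM of all pairs within a group (0.9875). Whether they come from separate mice, as labelled, was not tested. With the 2 summed there were 705 calls on chow.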

Additional observations from a re-analysis of the deposited data

Results flagged for a closer look

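Of 138 sets of 5 libraries (the named genes in WT or KO), 15 held a highest library that stood apart from the other 4. The measure was the gap in CPM to the next library as a share of the range. The rule's nominal rate of about 1 in 20 was not checked for skewed CPM or for genes chosen by their changes. The count of 15 is therefore not set against it. In KO 5, Cyp3a16 was at 963 CPM (others 0.0726 to 134), Cyp3a41a at 1118 CPM (0 to 133), Cyp3a41b at 706 CPM (0 to 87.0), Glod5 at 21.4 CPM (1.95 to 7.48), Serpina12 at 2.25 CPM (0.290 to 0.509), Slc10a2 at 15.6 CPM (1.02 to 5.08) and Spp1, which encodes osteopontin, at 246 CPM (33.2 to 58.6). KO 5 is a female with a negative length slope. In KO 2, Moxd1 was at 1.21 CPM where the others had none, and Myo15b was at 17.9 CPM (1.53 to 5.88). Cyp2c50 was at 921 CPM in KO 4 (195 to 386). Among WT libraries, Ehhadh was at 5150 CPM in WT 3 (756 to 1953), Pdgfra, a stellate cell receptor, at 11.8 CPM in WT 1 (5.17 to 6.65), Slc10a2 at 186 CPM in WT 4 (18.0 to 48.8), Vcam1, an adhesion molecule, at 94.7 CPM in WT 4 (18.5 to 39.8) and Thrsp at 93.6 CPM in WT 5 (5.51 to 25.1).

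For 3 named genes the genotype effect on the NASH diet differed from that on chow by the interaction test: Cidec by 4.17, Pik3c2g by −2.28 and Cyp2b9 by −9.79 on the log2 scale. With sex as a term these were 3.70, −2.18 and −5.36, and none passed the threshold.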

How the results depend on the processing

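The 798 calls became 1389 with DESeq2, 5836 with limma voom, 332 with only the 2 chow groups, 1656 with the length slope as a term, 1995 with sex and length slope, 489 with the male chow libraries, 51 in the libraries with a slope below −0.1 and 56 with a threshold of 1 on the log2 fold change. Leaving out each library gave 348 to 1220. The interaction count of 20 became 12 with a filter of 5 CPM, 189 with DESeq2, 1949 with limma voom, 4 with the replicate block, 4 with sex, 190 with the slope, 69 with both, 5 in male libraries, 80 in libraries with a slope above −0.1, 4 with NASH-diet KO libraries 1 and 5 summed, and 4 to 26 without a library. Pck1 was −2.17 in the libraries with a slope below −0.1 (adjusted p = 0.129, with 7.61e-18 to 0.129 over all alternatives), and in the other alternatives kept its call. With the replicate block there were 883 calls on chow and Pck1 was at −2.45. Same-numbered KO and WT libraries had deviations that correlated at 0.52, 0.45, −0.33, 0.17 and 0.40, and only number 1 correlated best with its own, so the numbers were not taken to pair the mice. Of the 798 calls, 796 kept their sign in the fits of males, where Cyp3a16 (−0.46 in both) and Cyp3a44 (−0.55 with all 4 groups) turned. The other named genes whose sign turned were not called in the pooled comparison: Apoe (−0.43 to 0.02 without a library, 0.02 without WT 5), COX1 (0.02 with sex, 0.24 with slope, 0.35 with both, 0.20 and 0.07 in libraries with a slope above and below −0.1), Ldha (0.18 in libraries with a slope above −0.1), Pck2 (0.03 without a filter, 0.25 with voom, 0.00 with the 2 chow groups, and 0.05, 0.09, 0.11, 0.04 and 0.24 without KO 1, KO 4, KO 5, WT 1 and WT 2, in a range of −0.20 to 0.24), Tef (0.13 with voom) and Vcam1 (−0.47 with voom, −0.51 in males, −0.52 in chow males, −0.30 without KO 5, −0.01 without WT 1, and up to 0.68 without WT 4). The cause of these changes was not tested. Over all settings 1457 values of named genes kept their direction and their side of the threshold, 299 kept their direction but lost the call, 5 gained a call and 23 turned. Depth limits genes near 1 CPM.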

Other observations

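Genes outside the lists, chosen after their values were seen from the smallest adjusted p, also separated the groups. Car2, the cytosolic carbonic anhydrase II, was at 2.55, 3.9, 4.38, 3.04 and 4.78 CPM in WT 1 to WT 5 and at 29, 36.2, 28.8, 31.4 and 61.5 CPM in KO 1 to KO 5. All KO libraries, male and female and at both length slopes, lay far above the WT libraries. The WT mice were all male, so females of the groups could not be compared. Car2 rose by 3.32 on the log2 scale (SE 0.398, adjusted p = 0.000125). Apmap, a membrane protein known from fat cells, rose from 41.4 ± 7.75 to 118 ± 19.3 CPM (1.5, SE 0.178, adjusted p = 0.000125). Il1rn, which encodes the antagonist of the interleukin 1 receptor, was at 13.1, 16.8, 15.9, 33 and 13.1 CPM in WT and at 99.3, 74, 75.9, 116 and 194 CPM in KO. It rose without overlap (2.61, SE 0.364, adjusted p = 0.000485), while Il1r1, the receptor itself, fell from 84.3 ± 38.1 to 22.7 ± 3.46 CPM (−1.89, SE 0.311, adjusted p = 0.00162). Slc22a7, an organic anion transporter, fell from 12.1 ± 4.85 to 1.47 ± 0.87 CPM (−3.01, SE 0.397, adjusted p = 0.000281). Rrm1, the large subunit of ribonucleotide reductase, which supplies nucleotides for DNA synthesis, rose from 9.96 ± 3.2 to 42.9 ± 25.5 CPM (2.11, adjusted p = 0.00176), highest in KO 1 and KO 2 as the 5 called MCM genes were. All of these kept their calls without each single chow library.

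Single genes of other roles, chosen after their values were seen and belonging to no list, were called too. Stbd1, which tethers glycogen to membranes, fell from 144 ± 45.4 to 50.2 ± 14.1 CPM (−1.52, adjusted p = 0.00167). Ppp1r3b, the regulatory subunit that directs a phosphatase to liver glycogen, had means of 84.5 CPM in WT and 22.8 CPM in KO (−1.89, SE 0.430, adjusted p = 0.0147), and Ppp1r3c, a related subunit, had 35.5 and 9.15 CPM (−1.96, SE 0.429, adjusted p = 0.0116). Lepr, the leptin receptor, had means of 68.1 CPM in WT and 664.9 CPM in KO (3.29, SE 0.698, adjusted p = 0.00911). Gal3st1, a sulfotransferase of glycolipids, rose from 1.06 ± 0.651 to 9.45 ± 3.46 CPM (3.18, adjusted p = 0.000546). Slc5a6, the vitamin transporter for biotin and pantothenate, rose from 7.9 ± 1.78 to 25 ± 9.96 CPM (1.66, adjusted p = 0.000692).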
